A study of Mus musculus with 8 samples.

Results

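The 10 genes described here, Robo4, Egfl7, Cldn5, Pecam1, Cdh5, Kdr, Tek, Tie1, Esam and Flt1, are known for their expression in the endothelium that lines blood vessels, and were followed through the culture of germ cells into embryonic germ (EG) cells. They were found by gene symbol, current or older, among 23473 array probes and 16390 genes named by a single symbol. All 10 were on the array with exactly 1 probe each, Esam under its older symbol Esam1. The cells were mouse cells with a Nanog-GFP reporter, and 8 one-colour arrays measured 4 groups, each with 2 arrays: E11.5 PGC, primordial germ cells taken from embryos at stage E11.5; Day3 and Day6, cells cultured for 3 and 6 days; and EG, a pluripotent cell type derived from germ cells. The sample names of Day3, of Day6 and of EG contain "2i+A83", which the labels give as PD325901 at 1 µM (a MEK inhibitor), CHIR99021 at 3 µM (a GSK3 inhibitor) and A83-01 at 250 nM (an inhibitor of Activin and Nodal receptors). The labels of all 4 groups, E11.5 PGC included, list this mixture together with Knockout DMEM, 15% KSR (a serum replacement), LIF and bFGF, so they do not say whether the E11.5 PGC met it. Candidate pluripotent cells were sorted by flow cytometry in the course of the culture, per the series' description. Strain, the number of embryos pooled and the number of EG lines are not stated in the labels, and nothing says that the 2 arrays of a group came from separate animals or cultures, so the p-values below measure only the spread between arrays.

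In blood vessels these genes form a few connected systems. Kdr and Flt1 encode the receptors for vascular endothelial growth factor (VEGF), of which Kdr carries most of the growth signal and Flt1 binds the ligand tightly and limits it. Tek is the receptor for the angiopoietins and Tie1 is its partner receptor. Cdh5, Cldn5, Esam and Pecam1 are adhesion proteins of the junctions between endothelial cells. Robo4 is an endothelial member of the Roundabout receptors, and Egfl7 is a secreted matrix protein whose gene hosts the microRNA miR-126 in an intron. Several are also found outside vessels: Pecam1 and Egfl7 are known in germ cells and pluripotent cells, and Pecam1 is used as a surface marker of embryonic stem cells.

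The start-site sequences of the 3 genes with opposite courses, Robo4 and Egfl7 (highest in EG) and Cldn5 (highest in E11.5 PGC), are shown for the ETS-type motif CAGGAAG, a core that ETS factors of endothelial cells can bind. Each is the 150 bases before an annotated start, 5′ to 3′ on the strand of the gene, from the RefSeq promoter table (build GRCm38.p6), and capitals mark CAGGAAG or its reverse complement CTTCCTG.
Robo4, chr9:37401822-37401971, plus strand: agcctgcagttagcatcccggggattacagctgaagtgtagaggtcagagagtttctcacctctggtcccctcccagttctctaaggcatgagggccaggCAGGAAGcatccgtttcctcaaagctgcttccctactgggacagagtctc
Egfl7, first start shown, chr2:26580933-26581082, plus strand: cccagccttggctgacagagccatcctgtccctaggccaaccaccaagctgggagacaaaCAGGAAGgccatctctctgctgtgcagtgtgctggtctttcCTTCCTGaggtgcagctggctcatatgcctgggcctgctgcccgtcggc
Egfl7, second start shown, chr2:26583715-26583864, plus strand: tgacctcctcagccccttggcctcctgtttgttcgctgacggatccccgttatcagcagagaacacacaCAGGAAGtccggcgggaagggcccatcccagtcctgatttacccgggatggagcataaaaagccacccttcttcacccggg
Cldn5, chr16:18776697-18776846, plus strand: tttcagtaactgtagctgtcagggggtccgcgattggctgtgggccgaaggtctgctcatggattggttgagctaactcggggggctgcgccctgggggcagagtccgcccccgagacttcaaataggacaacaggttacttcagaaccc
The motif lay 50 bases before the start of Robo4, 90 and 49 bases before the first start of Egfl7 and 81 bases before the second. The table gave 9 windows of 300 bases for 7 of the genes, and 3 of the 9 held CAGGAAG on either strand, against 13.3% of all 32851 windows. Those windows belonged to Robo4 and to both Egfl7 starts shown, and to no other of the 7 genes. A further Egfl7 window held no CAGGAAG and is not printed. The related ETS core CCGGAAG was in 0 of the 9 and in 8.86% of all. A SOX-type motif (ACAAAG, 18.7% of all windows) was found for Tek and for another Egfl7 start, and a GATA-type motif (AGATAA, 11.2% of all) for Tek. The forkhead core TAAACA (13.4% of all) was in 0 of the 9 windows, and TATAAA (13.6% of all) was found for Flt1. GGGCGG, the GC box, was in 4 of the 9 and in 35.7% of all; those 4 belonged to Cldn5, Egfl7, Flt1 and Kdr. No motif overlapped another in the lines printed, and a match is a description of these letters only. The mature miR-126a-3p encoded within Egfl7 (chr2:26591402-26591423, plus strand) has its seed, bases 2 to 8, in capitals.
miR-126a-3p: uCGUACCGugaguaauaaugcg
Its level was not analysed here, since the probe of Egfl7 reports the host gene.

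The values are linear spot intensity with array medians between 19.99 and 20.01, compared as log2 values, so that a change of 1 is a doubling. The dimmest 25% of probes lay under an intensity of 4.24, called the dim limit here. The number of arrays, 2 per group, limits the precision. By their names the arrays belong to a series A, with both EG arrays and replicate 1 of every other group, or a series B, with replicate 2 of the 3 groups other than EG, and changes are given over all arrays, with the series as a term in the model (blocked), and within a series. For EG, which has no array of series B, blocked values assume the same series difference in every group. The summed intensity of 12 germ cell markers was 20212 and 12702 in E11.5 PGC and 4885 and 3883 in EG, and that of 10 pluripotency markers was 21357 and 19581 against 42451 and 49247. Of 21 endothelial markers, 10 of which are the genes described here, 3 to 9 were under the dim limit on each array. All 21 together summed to 698 and 855 for E11.5 PGC, 711 and 671 for Day3, 556 and 621 for Day6, and 876 and 859 for EG. Egfl7 alone gave 518 and 474 of the EG sums. In E11.5 PGC, Egfl7 gave 189 and 177 and Pecam1 184 and 377. Of the 11 markers that are not among the genes described here, Emcn, Vwf, Icam2, Clec14a, Fli1 and Sox18 were at most 9.36 on any array. Cd34 reached 38.1, Erg lay between 9.68 and 20.3, Plvap between 6.56 and 33.8, Eng between 9.13 and 50.8 and Mmrn2 between 66.9 and 140.

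The genes did not move together. From E11.5 PGC to EG, Robo4 rose 14.5-fold and Egfl7 2.71-fold, while Cldn5 fell 7.15-fold and Pecam1 5.1-fold. At Day6 Cldn5 was 17.3-fold lower and Tek 6.75-fold higher than in E11.5 PGC. On the log2 scale Robo4 changed by 3.86 in EG, and Cldn5 by -4.12 and Tek by 2.75 at Day6. With a pseudocount of 1.61 added to every intensity these changes were 3.42, -3.75 and 2.04. The receptor genes Kdr and Tie1 and the adhesion gene Esam passed the test in none of the 6 comparisons of groups, with or without the series term, and Cdh5 had too few values to be tested. In bulk samples such as these, fewer cells of a type and less RNA per cell cannot be told apart.

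The test was the moderated test of limma, two-sided, with Benjamini-Hochberg adjustment over all probes tested in a comparison, and a gene was called at an adjusted p under 0.05. Of the 9 genes tested, EG against E11.5 PGC called 4, of which 2 rose and 2 fell, where 11.2% of 20761 probes were called. Day6 against E11.5 PGC called 2 (1 rose, 1 fell), with 8.61% of 20136 probes called. For Day3 against E11.5 PGC the count was 1, which fell, with 2.08% of 20678 probes called. EG against Day6 called 1, which rose, with 0.169% of 20103 probes called, and EG against Day3 called 1, which rose, with 1.42% of 20554. Day6 against Day3 called 0 of the 9 and 0 of 20015 probes (percent called 0), of which 1783 had an unadjusted p under 0.05.

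The blocked model called 6 of the 9 genes between EG and E11.5 PGC, where it called 23.6% of all probes, and 3 between Day6 and E11.5 PGC, where it called 23.8%. For Day3 against E11.5 PGC, EG against Day6 and EG against Day3 it called 1 gene each, with 8.34%, 1.96% and 5.68% of probes called. It called 0 of the genes between Day6 and Day3, with 1.8% of probes (361) called. The median log2 change of the 9 genes was -0.29 from E11.5 PGC to EG (all probes -0.16), -0.53 from E11.5 PGC to Day6 (all probes -0.16) and -0.53 from E11.5 PGC to Day3 (all probes -0.13). It was 0.47 from Day6 to EG (all probes -0.01), 0.37 from Day3 to EG (all probes -0.04) and -0.07 from Day3 to Day6 (all probes -0.05). The comparisons share groups, so their values are not independent of each other. Arrays of 2 groups often did not overlap. Against E11.5 PGC this held for 5 of the 9 genes in EG (64.2% of all probes). It held for 6 at Day6 (49.6%) and 5 at Day3 (41.1%). For EG it held for 7 against Day6 (46.2%) and 3 against Day3 (50%), and for Day6 against Day3 for 3 (30.6%).

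**Figure D1:**
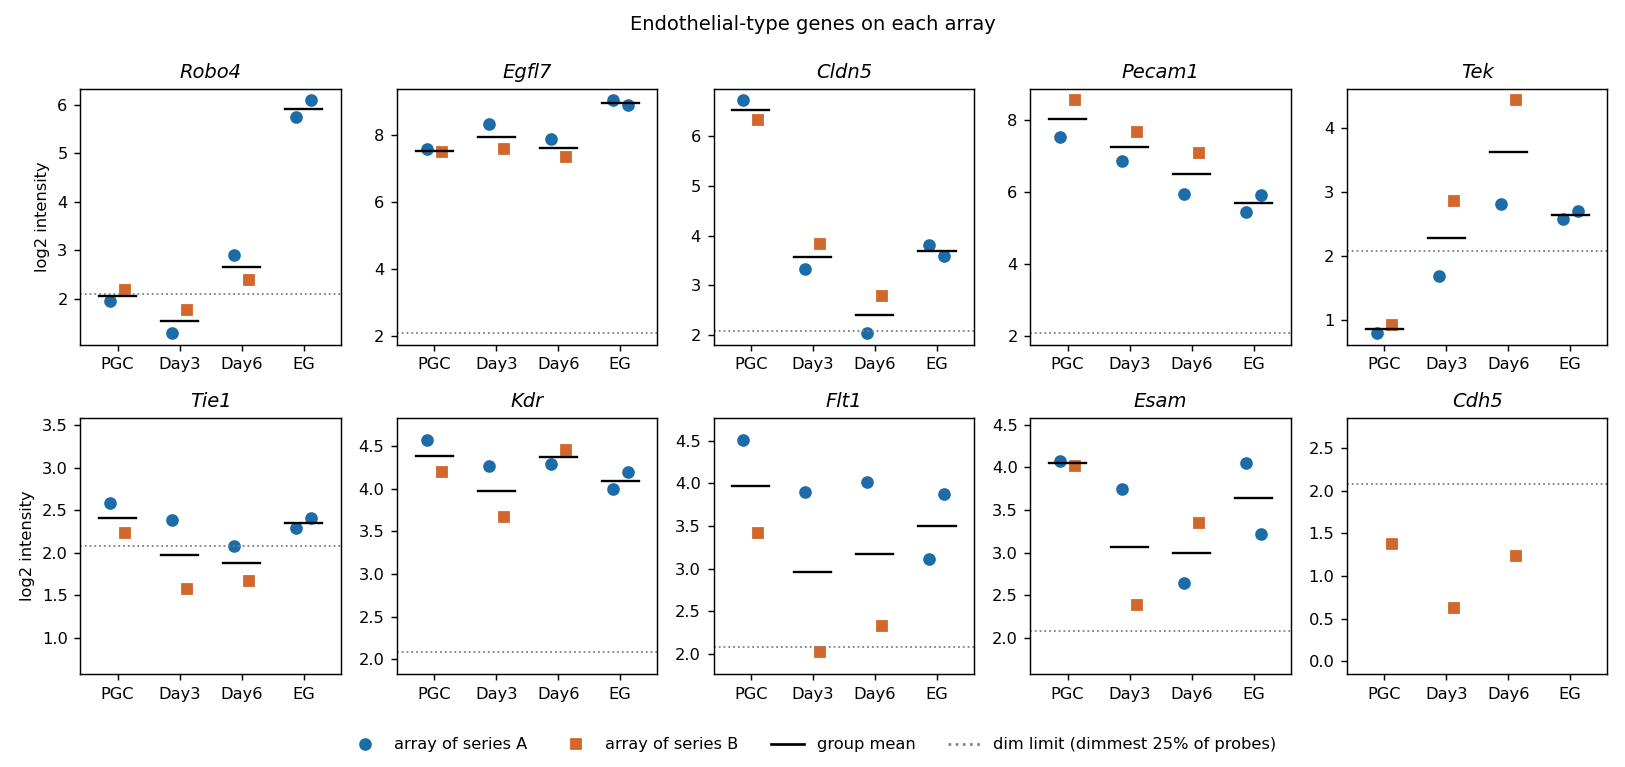
Log2 intensity of the 10 endothelial-type genes on each of the 8 arrays, by group, with the mean of the 2 arrays as a bar. Robo4 stands apart in EG and Cldn5 in E11.5 PGC, while the arrays of Kdr, Tie1 and Flt1 overlap between most groups and Cdh5 has values on 3 arrays only.

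Robo4, the Roundabout receptor of endothelium, was dim in every group but EG. The intensities were 3.83 and 4.54 for E11.5 PGC, 2.45 and 3.41 on the Day3 pair, 7.48 and 5.21 on the Day6 pair, and 53.5 and 68.1 in EG. Both EG arrays were far above the other 6, and 3 of those 6 were under the dim limit. The log2 change from E11.5 PGC to EG was 3.86 ± 0.32 (SE, limma adjusted p = 0.00194; blocked 3.89, adjusted p = 0.00147; within series A 3.98). That call was kept without each array in turn, at adjusted p-values from 0.00282 to 0.033. From Day3 to EG the change was 4.38 ± 0.32 (limma adjusted p = 0.00758), against Day3 arrays that both lay under the dim limit (3.78 with a pseudocount of 1.61 added to every intensity), and it was lost without Day3 replicate 1 (adjusted p = 0.0548), EG replicate 1 (adjusted p = 0.0579) or EG replicate 2 (adjusted p = 0.101). From Day6 to EG Robo4 rose by 3.27 ± 0.32 (limma adjusted p = 0.026), a call lost without any 1 of the 8 arrays (adjusted p from 0.061 to 0.195) and in a model of the 2 groups' arrays alone (adjusted p = 0.186). In order of level, EG stood above Day6, E11.5 PGC and Day3, and the last 3 did not differ from each other past the threshold (limma adjusted p from 0.294 to 0.554).

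Egfl7, the secreted matrix protein, was bright throughout and brightest in EG. The intensities were 189 and 177 for E11.5 PGC, 317 and 191 on the Day3 pair, 236 and 160 on the Day6 pair, and 518 and 474 in EG. Both EG arrays were above all others, while Day3 and Day6 overlapped each other. The log2 change from E11.5 PGC to EG was 1.44 ± 0.34 (SE, limma adjusted p = 0.0405; blocked 1.2, adjusted p = 0.0171; within series A 1.39). The call was lost without E11.5 PGC replicate 1 (adjusted p = 0.134) or 2 (adjusted p = 0.181), without EG replicate 1 (adjusted p = 0.215) or 2 (adjusted p = 0.199), and with arrays centred on a common median (adjusted p = 0.0574). The blocked call was lost without E11.5 PGC replicate 1 or either EG array, and the blocked change lay between 0.84 and 1.39 with 1 array left out. Against Day6 the EG value was higher by 1.35 ± 0.34 (limma adjusted p = 0.176) and against Day3 by 1.01 ± 0.34 (limma adjusted p = 0.22), neither past the threshold. Robo4 and Egfl7, which both peaked in EG, had a Pearson correlation of 0.81 over the 8 arrays, which share their 4 groups.

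**Figure D2:**
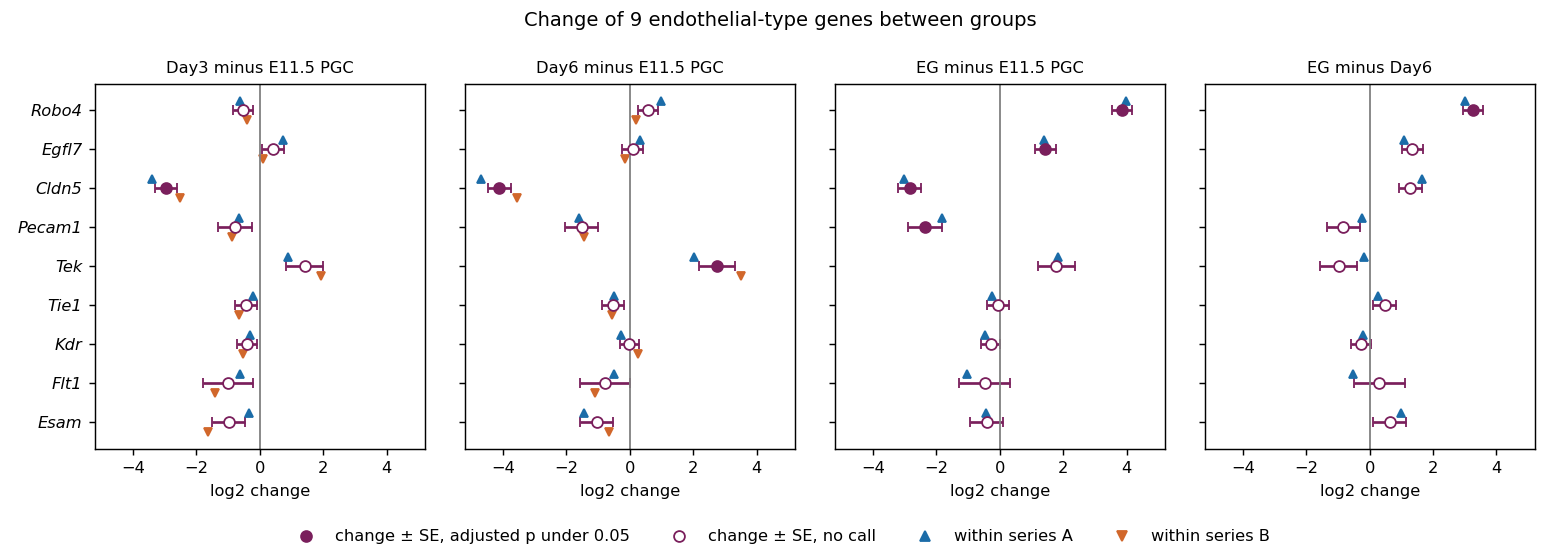
Log2 change ± SE of 9 genes in 4 comparisons (filled circles: limma adjusted p under 0.05), with the change within array series A and B as triangles where both groups have an array of that series. Robo4 lies at 3.86 in EG against E11.5 PGC, and Cldn5 lies left of 0 in every comparison with E11.5 PGC.

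Among the junction genes, Cldn5, a tight junction protein that seals the endothelium of the brain, fell early in culture. The intensities were 105 and 80.7 for E11.5 PGC, 9.99 and 14.1 on the Day3 pair, 4.11 and 6.87 on the Day6 pair, and 13.9 and 12 in EG. Both E11.5 PGC arrays were above the other 6, both Day6 arrays were the lowest, 1 of them under the dim limit, and Day3 and EG overlapped. By Day3 the log2 change from E11.5 PGC was -2.96 ± 0.36 (SE, limma adjusted p = 0.0139; blocked adjusted p = 0.00533), with -3.4 within series A and -2.51 within series B. By Day6 it was -4.12 ± 0.36 (limma adjusted p = 0.00206; blocked adjusted p = 0.000882), with -4.68 and -3.55 within the series, and in EG it was -2.84 ± 0.36 (limma adjusted p = 0.00586; blocked -2.69, adjusted p = 0.00408; within series A -3.03).

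The Day6 call for Cldn5 was kept without each array in turn, up to an adjusted p of 0.0233. At Day3 it was lost without E11.5 PGC replicate 1 (adjusted p = 0.107) or 2 (adjusted p = 0.0994), without Day3 replicate 1 (adjusted p = 0.0711) or 2 (adjusted p = 0.055), and with the 2 groups' arrays alone (adjusted p = 0.057). In EG it was lost without EG replicate 1 (adjusted p = 0.0507) or 2 (adjusted p = 0.0682), and the blocked change was -2.02 without E11.5 PGC replicate 1. From Day6 to EG, Cldn5 intensity was higher on both arrays, by 1.28 ± 0.36 on the log2 scale, which did not pass (limma adjusted p = 0.203; blocked adjusted p = 0.0802).

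Pecam1, an adhesion molecule of endothelium that germ cells and embryonic stem cells also carry, was highest in E11.5 PGC and lowest in EG. The intensities were 184 and 377 for E11.5 PGC, 117 and 203 on the Day3 pair, 61.2 and 138 on the Day6 pair, and 44.1 and 60.7 in EG. The series B array was the higher one in each of the 3 groups that have one, and the EG arrays lay below all others. From E11.5 PGC to EG the log2 change was -2.35 ± 0.53 (SE, limma adjusted p = 0.0348; blocked -1.85, adjusted p = 0.00568; within series A -1.83). The call was lost without E11.5 PGC replicate 1 (adjusted p = 0.0675) or 2 (adjusted p = 0.185), without EG replicate 1 (adjusted p = 0.203) or 2 (adjusted p = 0.153), and after quantile normalization (adjusted p = 0.0597), which with the series term gave -1.66 (adjusted p = 0.00891). At Day6 the change from E11.5 PGC was -1.52, with -1.59 within series A and -1.45 within series B. It was called only with the series term (limma adjusted p = 0.00687, against 0.136 without it), and there not without Day6 replicate 1 (adjusted p = 0.0524).

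Esam, an adhesion molecule of endothelial cells and platelets, had intensities of 16.8 and 16.2 for E11.5 PGC, 13.4 and 5.24 on the Day3 pair, 6.25 and 10.2 on the Day6 pair, and 16.5 and 9.35 in EG. Both E11.5 PGC arrays were above Day3 and Day6, and EG overlapped all 3 other groups. The change from E11.5 PGC to Day6, -1.05 ± 0.52 on the log2 scale, did not pass (limma adjusted p = 0.275; blocked adjusted p = 0.18). Cdh5, the cadherin that defines endothelial junctions, had a value on 3 arrays only: 2.61 on E11.5 PGC replicate 2, 1.54 on Day3 replicate 2 and 2.34 on Day6 replicate 2. All 3 are arrays of series B and all 3 values lay under the dim limit, and no array of series A gave a value. No fold or test was made for Cdh5.

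Of the angiopoietin receptors, Tek was dimmest in E11.5 PGC and brightest at Day6. The intensities were 1.74 and 1.91 for E11.5 PGC, 3.22 and 7.25 on the Day3 pair, 7.02 and 21.5 on the Day6 pair, and 5.97 and 6.52 in EG. Both E11.5 PGC arrays were under the dim limit and below all others, and the highest value was on Day6 replicate 2. The log2 change from E11.5 PGC to Day6 was 2.75 ± 0.58 (SE, limma adjusted p = 0.0315; blocked adjusted p = 0.00388), with 2.01 within series A and 3.5 within series B. With a pseudocount of 1.61 added to every intensity the change was 2.04 (adjusted p = 0.0361).

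The Day6 call for Tek was lost without E11.5 PGC replicate 1 (adjusted p = 0.151) or 2 (adjusted p = 0.133), Day6 replicate 2 (adjusted p = 0.0675), or EG replicate 1 or 2 (adjusted p = 0.0756 each), and with the 2 groups' arrays alone (adjusted p = 0.0881). The change was 3.56 without Day6 replicate 1 and 1.95 without replicate 2, and with the series term 3.39 without E11.5 PGC replicate 1 and 2.12 without replicate 2. From E11.5 PGC to EG the change was 1.78 ± 0.58 (limma adjusted p = 0.0997), and it passed with the 2 groups' arrays alone. It was 1.19 with the pseudocount (adjusted p = 0.151) and 1.82 after quantile normalization (adjusted p = 0.105). With the series term it was 2.26 and passed (adjusted p = 0.0099), except without EG replicate 2 (adjusted p = 0.0552), and it was 3.11 without E11.5 PGC replicate 1. Within series A it was 1.84. Cldn5 and Tek, the one highest and the other lowest in E11.5 PGC, had a Pearson correlation of -0.79 over the 8 arrays.

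Tie1, the partner receptor of Tek, stayed near the dim limit, at 6 and 4.69 in E11.5 PGC, 5.19 and 2.98 on the Day3 pair, 4.22 and 3.19 on the Day6 pair, and 4.87 and 5.3 in EG. The groups overlapped except that Day6 lay below E11.5 PGC and EG. The change furthest from 0 was that from E11.5 PGC to Day6, at -0.53 ± 0.35 on the log2 scale (limma adjusted p = 0.424; blocked adjusted p = 0.116). Tek and Tie1 had a Pearson correlation of -0.72 over the 8 arrays.

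Of the VEGF receptors, Kdr had intensities near the array median on every array: 23.7 and 18.2 for E11.5 PGC, 19.3 and 12.7 on the Day3 pair, 19.6 and 21.8 on the Day6 pair, and 15.8 and 18.2 in EG. The lowest was Day3 replicate 2, the highest was E11.5 PGC replicate 1, and E11.5 PGC overlapped each other group. Its log2 change was between -0.41 (Day3 against E11.5 PGC) and 0.4 (Day6 against Day3), each with an SE of 0.31, at limma adjusted p-values of 0.658 and 0.874. Flt1, the VEGF receptor that limits the ligand, had 22.8 and 10.7 in E11.5 PGC, 14.9 and 4.06 on the Day3 pair, 16.3 and 5.04 on the Day6 pair, and 8.61 and 14.7 in EG. Its series A array was the brighter one in all 3 groups with both series, by more than the group means differed.

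The change of Flt1 from E11.5 PGC to EG was -0.48 ± 0.79 without the series term (limma adjusted p = 0.75) and -1.02 within series A. With the series term it was -1.25 (adjusted p = 0.0454), and that call was lost without any 1 of 7 arrays, all but EG replicate 2 (adjusted p from 0.073 to 0.172). From Day6 to EG the sign of its change depended on the term, at 0.31 without and -0.46 with it, with no call in either (limma adjusted p = 0.914 and 0.47). Tie1 and Flt1 had the highest correlation of any pair of the genes, 0.9 over 8 arrays, and both were brighter on the series A array in each of those 3 groups.

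The genes around these receptors were taken from a list of 22 ligands and partners, all with a probe. From E11.5 PGC to EG, 2 of 20 tested rose and 1 fell, where 11.2% of all probes were called, and from E11.5 PGC to Day6 2 of 20 rose and 2 fell, where 8.61% were. From Day3 to EG 2 of 19 rose and 0 fell (1.42% of all probes called), and in the other 3 comparisons 0 passed. With the series term the first of these became 4 that rose and 4 that fell (23.6% of all probes called), and the second 3 and 3 (23.8%). From Day3 to EG 2 rose and 0 fell (5.68%), and by Day3 1 rose and 1 fell (8.34%). From Day3 to Day6 1 rose and 0 fell (1.8%), and from Day6 to EG 0 passed (1.96%). The median change of the list from E11.5 PGC to EG was -0.07, against -0.16 for all probes.

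Vegfc, which encodes the ligand of the lymphatic VEGF receptor, had intensities of 19.9 and 20.5 for E11.5 PGC, 36.4 and 59.6 on the Day3 pair, 212 and 194 on the Day6 pair, and 188 and 223 in EG. The Day6 and EG arrays were all above those of E11.5 PGC and Day3. Its log2 change from E11.5 PGC was 3.33 ± 0.31 at Day6 (limma adjusted p = 0.00245) and 3.35 ± 0.31 in EG (adjusted p = 0.00262), and both calls were kept without each array in turn. Vegfa, the main ligand of Kdr and Flt1, had 22.4 and 20.3 in E11.5 PGC, 14.1 and 17.5 on the Day3 pair, 22.8 and 27.3 on the Day6 pair, and 55.9 and 85.9 in EG. Only the EG arrays stood above the rest. The rise from E11.5 PGC to EG was 1.7 ± 0.31 (limma adjusted p = 0.0181), a call lost without either E11.5 PGC array (adjusted p = 0.0796 and 0.111) or either EG array (adjusted p = 0.066 and 0.149). From Day3 to EG, Vegfa and Vegfc each rose by 2.14 ± 0.31 (limma adjusted p = 0.0308), calls lost without any array of E11.5 PGC, Day3 or EG (adjusted p from 0.0699 to 0.27 for Vegfa and from 0.0521 to 0.271 for Vegfc) and with the 2 groups' arrays alone (adjusted p = 0.0619 and 0.0675).

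Vegfb, a ligand of Flt1, had 511 and 561 in E11.5 PGC, 308 and 322 on the Day3 pair, 204 and 171 on the Day6 pair, and 304 and 315 in EG. It was lowest at Day6, with a change from E11.5 PGC of -1.52 ± 0.25 (limma adjusted p = 0.0137), lost without either E11.5 PGC array (adjusted p = 0.0732 and 0.0913) and with the 2 groups' arrays alone (adjusted p = 0.0899). Among the partners of the junctions and receptors, Jup (plakoglobin) rose by 1.6 ± 0.31 at Day6 (limma adjusted p = 0.0251) and Robo1, a Roundabout receptor of neurons, fell by 2.58 ± 0.54 (adjusted p = 0.0396). Both Day6 values of Robo1, 2.24 and 0.826, were under the dim limit, and its change was -3.3 without Day6 replicate 1, -1.86 without replicate 2 and -1.68 with the pseudocount. Ptpn11, a phosphatase of receptor signalling, fell by 1.22 ± 0.29 in EG (limma adjusted p = 0.0384). These 3 calls were lost without either array of E11.5 PGC (adjusted p from 0.0913 to 0.191) and, for Jup and Ptpn11, either array of the other group (adjusted p from 0.0525 to 0.248). Jup and Robo1 were also lost without either EG array (adjusted p = 0.0677 and 0.0963) and with the 2 groups' arrays alone (adjusted p = 0.0953 and 0.106), Robo1 without Day6 replicate 2 (adjusted p = 0.0716), and with centred arrays Robo1 (adjusted p = 0.0578) and Ptpn11 (adjusted p = 0.0605). Ctnnb1, the catenin of cadherin junctions, lay between 544 and 990 on all arrays and was called in no comparison. Tjp1, a scaffold of tight junctions, lay between 32.4 and 75.6 and was called only with the series term, for EG against E11.5 PGC (-1.07, limma adjusted p = 0.0194).

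Of 20 transcription factors known in endothelial development, 17 had a probe; Ets1, Hhex and Mef2c were not matched. From E11.5 PGC to Day6, 2 of 17 rose and 2 fell, where 8.61% of all probes were called. From E11.5 PGC to EG 0 of 16 rose and 1 fell, where 11.2% were called, and in the other 4 comparisons 0 passed. With the series term the second of these became 3 that rose and 3 that fell (23.6% of all probes called), and the first 2 and 3 (23.8%). By Day3 1 rose and 2 fell (8.34%), and from Day3 to Day6 1 rose and 1 fell (1.8%). From Day6 to EG 0 rose and 1 fell (1.96%), and from Day3 to EG 1 rose and 1 fell (5.68%). The median change of the list was 0.13 from E11.5 PGC to EG and 0.05 to Day6, against -0.16 for all probes in both. Etv2, an ETS factor at the top of endothelial specification, had intensities of 11.8 and 10.1 for E11.5 PGC, 23.2 and 23.3 on the Day3 pair, 78.6 and 74.3 on the Day6 pair, and 22 and 13 in EG. Both Day6 arrays stood above every other array. Its change from E11.5 PGC to Day6 was 2.8 ± 0.32 (limma adjusted p = 0.00415), kept without each array in turn. From Day6 to EG its change of -2.18 ± 0.32 did not pass (limma adjusted p = 0.064), and with the series term it did (-2.23, adjusted p = 0.0315).

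Gata2, a GATA factor of blood and endothelial progenitors, had 162 and 91.2 in E11.5 PGC, 232 and 57.6 on the Day3 pair, 24.1 and 22.7 on the Day6 pair, and 13.7 and 14.8 in EG. It was lowest in EG, with a change from E11.5 PGC of -3.1 ± 0.62 (limma adjusted p = 0.024), lost without either E11.5 PGC array (adjusted p = 0.12 and 0.0875) or either EG array (adjusted p = 0.146 and 0.144). At Day6, Lmo2, a bridging protein of the same progenitors, had fallen by 2.79 ± 0.45 (limma adjusted p = 0.0122) and Foxo1, a forkhead factor under PI3K control, by 2.62 ± 0.42 (adjusted p = 0.0122), while Ets2 had risen by 1.82 ± 0.39 (adjusted p = 0.0337). Lmo2 and Foxo1 were lost without either E11.5 PGC array (adjusted p from 0.0513 to 0.0845), Foxo1 also with the 2 groups' arrays alone (adjusted p = 0.0543), and Ets2 without any array of E11.5 PGC, Day6 or EG (adjusted p from 0.0517 to 0.176) and with the 2 groups' arrays alone (adjusted p = 0.111). Klf2, a flow-responsive factor of endothelium, lay between 172 and 362 on all arrays and was called only with the series term, for Day3 against E11.5 PGC (1.01, limma adjusted p = 0.0303). Elk3, an ETS factor, lay between 12.7 and 33.3 and was called in no comparison.

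**Figure D3:**
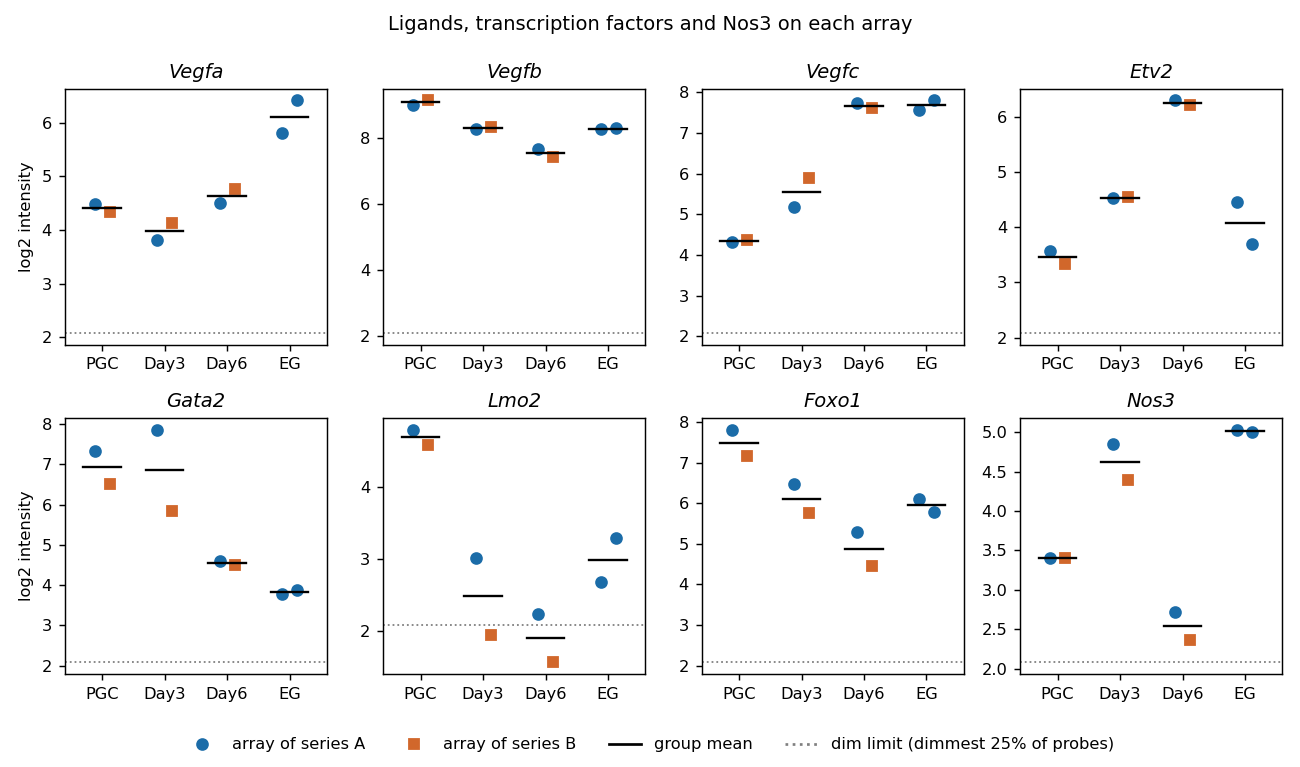
Log2 intensity on each array of 8 genes from the lists of ligands, transcription factors and other endothelial markers, with the mean of the 2 arrays as a bar. Vegfc is high at Day6 and in EG, Vegfa in EG alone and Etv2 at Day6, while Gata2 is lowest in EG.

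Of 24 further endothelial markers, 2 rose and 0 fell from E11.5 PGC to EG (11.2% of all probes called), and 1 rose and 1 fell by Day6 (8.61%), of 24 tested each. By Day3 1 of 23 rose (2.08% of all probes called), from Day6 to EG 1 of 24 rose (0.169%), and in the other 2 comparisons 0 passed. With the series term 6 rose and 2 fell by Day6, where 23.8% of all probes were called, and 5 rose by Day3, where 8.34% were. From E11.5 PGC to EG 3 rose and 0 fell (23.6%), and from Day6 to EG 2 rose and 2 fell (1.96%). From Day3 to Day6 0 rose and 1 fell (1.8%), and from Day3 to EG 0 rose and 1 fell (5.68%). The median change of the list was -0.05 from E11.5 PGC to EG and -0.2 to Day6, against -0.16 for all probes in both. Nos3, the nitric oxide synthase of endothelium, had intensities of 10.5 and 10.6 for E11.5 PGC, 28.8 and 20.9 on the Day3 pair, 6.58 and 5.18 on the Day6 pair, and 32.6 and 32.1 in EG. The Day6 arrays were the lowest and the EG arrays the highest. Its change was 1.61 ± 0.28 from E11.5 PGC to EG (limma adjusted p = 0.0161), lost without either array of these groups (adjusted p from 0.0805 to 0.129), and 2.47 ± 0.28 from Day6 to EG (adjusted p = 0.0369), lost without any 1 of the 8 arrays (adjusted p from 0.0634 to 0.265), with centred arrays (adjusted p = 0.0566) and with the 2 groups' arrays alone (adjusted p = 0.186).

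Podxl, a sialomucin of vessels and of pluripotent cells, rose by 2.19 ± 0.52 in EG (limma adjusted p = 0.0393), lost without either array of E11.5 PGC or EG (adjusted p from 0.109 to 0.228) and with centred arrays (adjusted p = 0.0511). Ly6c1, a surface antigen of endothelium and leukocytes, was 32.9 and 15.2 in E11.5 PGC, 1225 and 584 on the Day3 pair, 4123 and 532 on the Day6 pair, and 246 and 78.7 in EG. It rose by 6.05 ± 1.01 by Day6 (limma adjusted p = 0.0139), a change that was 4.57 without Day6 replicate 1 and 7.53 without Day6 replicate 2. The call was lost without either E11.5 PGC array (adjusted p = 0.0616 and 0.0964) and with the 2 groups' arrays alone (adjusted p = 0.0523). Plvap, of the fenestrae of endothelium, fell by 2.08 ± 0.41 by Day6 (limma adjusted p = 0.0251), lost without any array of E11.5 PGC, Day6 or EG (adjusted p from 0.0523 to 0.137). Mcam, an adhesion molecule of endothelium and mesenchyme, rose by 1.57 ± 0.29 by Day3 (limma adjusted p = 0.0454), lost without any array of E11.5 PGC, Day3 or EG (adjusted p from 0.11 to 0.254), with the 2 groups' arrays alone (adjusted p = 0.144), after quantile normalization (adjusted p = 0.0503) and with missing cells set to the array minimum (adjusted p = 0.0546).

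The brightest markers of that list with no call in the model without the series term were Tm4sf1 and Mmrn2, the latter called in neither model. Tm4sf1, a membrane protein of endothelium and other adherent cells, was 3.44 and 1.83 for E11.5 PGC, 454 and 45.1 for Day3, 706 and 6.21 for Day6, and 458 and 127 for EG. Its arrays differed far more within Day3 and Day6 than within E11.5 PGC, with series A the brighter. With the series term Tm4sf1 was higher than in E11.5 PGC by 5.83 at Day3 (limma adjusted p = 0.0447, against 0.256 without the term) and by 4.72 at Day6 (adjusted p = 0.042, against 0.226), the latter made up of 7.68 within series A and 1.76 within series B. In EG it did not pass in either model (adjusted p = 0.0527 with the term and 0.0916 without). Eng, a TGF-beta co-receptor of endothelium, was 9.13 and 14.5 for E11.5 PGC, 19.8 and 40.6 for Day3, 18.5 and 50.8 for Day6, and 17.7 and 18.9 for EG. All later arrays of Eng were above both E11.5 PGC arrays. Of all probes, 41.1% at Day3, 49.6% at Day6 and 64.2% in EG did not overlap with E11.5 PGC, in either direction. With the series term the change of Eng from E11.5 PGC passed at Day3 (1.3, limma adjusted p = 0.0277), at Day6 (1.41, adjusted p = 0.00945) and in EG (1.19, adjusted p = 0.0211). That model called 8.34%, 23.8% and 23.6% of all probes there. Without the term Eng passed at none of them (adjusted p = 0.353, 0.178 and 0.498). Eng was added to the genes named after its values were seen.

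Marker lists of other cell types were also examined. From E11.5 PGC to Day6, 0 of 13 fibroblast and mesenchyme markers tested were called, where 8.61% of all probes were. All 13 of their log2 changes were positive, with a median of 1.09 against -0.16 for all probes. Of 11 blood markers tested 1 rose and 1 fell by Day6 (median change -0.44), and of 10 gonadal somatic markers 0 rose and 1 fell (median change -0.33). With the series term 3 of the 13 fibroblast and mesenchyme markers rose, where 23.8% of all probes were called. From E11.5 PGC to EG, 2 of 11 blood markers tested rose and 1 fell, where 11.2% of all probes were called. Of 14 fibroblast and mesenchyme markers and of 11 gonadal somatic markers 0 were called there. The median changes were -0.24 (blood), 0.49 (fibroblast and mesenchyme) and -0.44 (gonadal somatic), against -0.16 for all probes. The summed intensity of 14 fibroblast and mesenchyme markers was 1029 and 1364 in E11.5 PGC, 2256 and 1651 on the Day3 pair, 5526 and 2501 on the Day6 pair, and 2692 and 1928 in EG, with 1 to 3 of them under the dim limit on each array. That of 13 blood markers was 221 and 320, 245 and 215, 454 and 329, and 616 and 692 in the same order, with 1 to 4 under the dim limit. The 12 gonadal somatic markers summed to between 65 and 108 on all arrays, with 2 to 8 under the dim limit. The part of these cell types in the changes of the endothelial-type genes was not tested.

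The nearest gene with a probe on each side of a member was taken from the RefSeq gene order, 19 different genes in all. For EG against E11.5 PGC, 2 of 18 tested rose and 3 fell, where 11.2% of all probes were called. Robo4 and Esam lie close together, with Ccdc15 and Robo3 as the nearest probed genes to Robo4, and Robo3 and Vsig2 as the nearest to Esam. In that stretch Robo4 rose by 3.86 and Vsig2 by 1.95 ± 0.31 (limma adjusted p = 0.0118), while Ccdc15 (0.65, adjusted p = 0.384), Robo3 (-0.52, adjusted p = 0.248) and Esam (-0.41, adjusted p = 0.664) did not pass. Vsig2 had intensities of 7.37 and 6.8 for E11.5 PGC, 8.98 and 7.82 on the Day3 pair, 7.8 and 12 on the Day6 pair, and 24.4 and 30.5 in EG, so that its EG arrays, like those of Robo4, stood above all others.

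Egfl7 lies between Notch1, which did not pass from E11.5 PGC to EG (-0.43, limma adjusted p = 0.728), and Agpat2, an enzyme of phospholipid synthesis, which rose by 2.76 ± 0.37 (adjusted p = 0.00706). Agpat2 had risen already by Day3, by 3.24 ± 0.37 (limma adjusted p = 0.0113), when Egfl7 had not (0.42, adjusted p = 0.682), and was also higher at Day6 (2.95, adjusted p = 0.00555). Of the other neighbours, Kit beside Kdr fell by 2.22 ± 0.45 (limma adjusted p = 0.0245), Cdc45 beside Cldn5 by 1.31 ± 0.3 (adjusted p = 0.0372) and Ift74 beside Tek by 2.02 ± 0.51 (adjusted p = 0.0474), while Kdr (-0.29, adjusted p = 0.604) and Tek (1.78, adjusted p = 0.0997) did not pass.

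Without either array of E11.5 PGC or EG the EG calls of Vsig2, Kit, Cdc45 and Ift74 were lost (adjusted p from 0.0604 to 0.236), and so was that of Agpat2 without E11.5 PGC replicate 2 or either EG array (adjusted p from 0.0538 to 0.0804). The Day3 call of Agpat2 was lost without either E11.5 PGC array (adjusted p = 0.083 and 0.108) and with the 2 groups' arrays alone (adjusted p = 0.0598), Cdc45 (adjusted p = 0.0925) and Ift74 (adjusted p = 0.0677) after quantile normalization, and Ift74 with missing cells set to the array minimum (adjusted p = 0.0549). With quantile normalization and the series term together the change of Ift74 was -1.43.

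**Figure D4:**
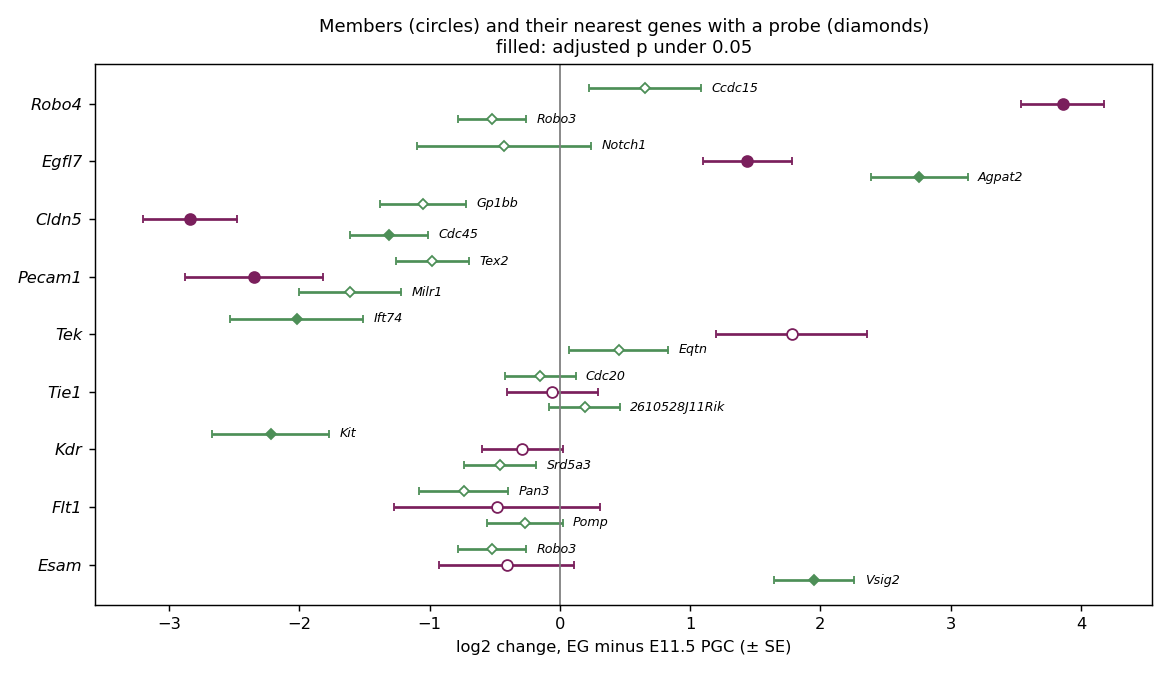
Log2 change ± SE from E11.5 PGC to EG of 9 genes (circles) and of the nearest genes with a probe on either side (diamonds), filled where the limma adjusted p was under 0.05. Robo4 at 3.86 lies away from Ccdc15 and Robo3, and Kit fell beside Kdr, which did not pass.

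Genes with the most similar course were sought among 1583 genes whose group means spanned at least 2 on the log2 scale, by Pearson correlation over the 8 arrays, for the 4 members whose brightest group was at least 2 times the array median. For Robo4 they were Tmem88 (r = 0.989) and Car4 (0.984). For Egfl7 they were Chrna9 (0.979) and Il27ra (0.97), and for Cldn5 Serpini1 (0.978) and Cend1 (0.977). For Pecam1 they were Plekhh1 (0.994) and Mier1 (0.992). These coefficients describe 8 arrays in 4 groups and were the highest of many.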

How the data were processed

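The deposited table holds linear intensity of one-colour TORAY arrays, scaled by the authors to an array median near 20. The sources used here do not give the background correction, the scaling method or why 11674 cells are empty; empty cells stayed empty. Per the labels, amplified aminoallyl RNA was coupled to dye. The 10 genes and all lists and motifs were chosen with earlier results of these data known, and motifs after the table was seen.

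Log2 intensity was fitted with limma 3.58.1 (R 4.3.3) on all 8 arrays without a block, in 6 comparisons, and probes lacking a value on any array of the compared groups were not tested. The fit without a block was tested on simulated arrays, which held no difference between array series. All 10 members were named, and of the lists of ligands, transcription factors and other endothelial markers the called genes (up to 6 per comparison) with the 2 brightest others; Eng was named after its values were seen. Marker lists of other cell types are given as sums, and those of fibroblast, blood and gonadal somatic cells also with their calls at Day6 and in EG. Deviations of same-numbered arrays correlated at 0.62, 0.547 and 0.694 among E11.5 PGC, Day3 and Day6, and between -0.025 and 0.061 with EG, so the numbers pair only the first 3 groups; array series is given as a block. Alternatives were other normalizations, filters, a pseudocount, missing values, variance models, sample sets and each array left out. Blocked models without each array were added after seeing the data. They were used for the 10 members only, so blocked calls of other genes were not checked in this way.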

Additional observations from a re-analysis of the deposited data

How the results depend on the processing

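Each gene has 1 probe, so the alternative of separate probes was not applicable. The number of endothelial-type genes called with 1 array left out was between 0 and 1 for Day3 against E11.5 PGC, 0 and 0 for EG against Day6, 1 and 5 for EG against E11.5 PGC, 1 and 2 for Day6 against E11.5 PGC, and 0 and 1 for EG against Day3; for Day6 against Day3 it was 0 in every setting run. With only the arrays of the 2 groups it was 0, 0 and 1 for Day3 against E11.5 PGC, EG against Day6 and Day6 against E11.5 PGC. With the array series as replicate block and quantile normalization it was 2 for Day3 against E11.5 PGC (Cldn5 and Tek). With the replicate number as block, which in EG pairs no arrays, it was 2 for EG against Day3 (Robo4 and Pecam1). With the series block and 1 array left out, an alternative chosen after seeing the data, it ranged from 0 to 2 for Day3 against E11.5 PGC (0 without either Day3 array) and from 0 to 2 for EG against Day6 (0 without any array of Day3, Day6 or EG), and was 0 for EG against Day3 without Day3 replicate 1. The cause was not tested. The 9 calls made without the block kept their sign in all 26 settings. Of 54 changes tested, 18 turned sign in at least 1 setting, none of them called without the block, in 7 genes; the largest was 0.79 in size (log2). Robo4 (EG against E11.5 PGC) and Cldn5 (Day6 against E11.5 PGC) were called in every setting run. Robo4 outside EG, Cldn5 at Day6, Tek in E11.5 PGC, Tie1 and Cdh5 lie near or under the dim limit, where a fold depends on few units of intensity.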
